A study of Mus musculus with 6 samples.

Results

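The globin genes and a pair of further red cell genes were followed in whole mouse hearts at embryonic day 12. The hearts came from embryos with Mrps5 targeted for deletion in cardiomyocytes (cKO) and from control littermates (Ctrl). The genes were taken by symbol and comprised 3 embryonic (primitive) globins, Hbb-y (ENSMUSG00000052187), Hbb-bh1 (ENSMUSG00000052217) and Hba-x (ENSMUSG00000055609), and 4 adult (definitive) globins, Hba-a1 (ENSMUSG00000069919), Hba-a2 (ENSMUSG00000069917), Hbb-bs (ENSMUSG00000052305) and Hbb-bt (ENSMUSG00000073940). Alas2 (ENSMUSG00000025270) and Slc4a1 (ENSMUSG00000006574) completed the set. These are 9 of the 26199 genes in the table, and all 9 passed the filter on low values that left 13262 genes for testing. The study asked what loss of Mrps5, a protein of the small subunit of the mitochondrial ribosome, does to the developing heart. RNA of 3 Ctrl and 3 cKO libraries was sequenced after ribosomal RNA had been removed, and each library came from a pool of hearts. Ctrl embryos were Mrps5 fl/fl without Cre. By their labels, embryos of the cKO group were Mrps5 fl/fl and also carried cTNT-Cre, a transgene that makes Cre from a troponin T2 promoter and so directs the deletion to cardiomyocytes. A supplementary figure legend of the study instead writes the Cre-carrying hearts as Mrps5 fl/+. By the labels, both groups thus shared the floxed alleles. Blood cells were not isolated, and their RNA was read as part of the RNA of the heart.

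Red blood cells form in successive waves. Primitive erythroblasts arise in the yolk sac, enter the circulation and mature there, and they carry mainly the embryonic globins, whereas definitive red cells are made later in the fetal liver and carry mainly the adult globins. In RNA of whole hearts, the share of a globin does not show which kind of red cell it came from. Each haemoglobin molecule pairs alpha-like chains (Hba genes) with beta-like chains (Hbb genes), and every chain holds a heme group, whose synthesis in red cells starts with Alas2. Slc4a1 encodes band 3, the anion exchanger that anchors the red cell membrane to its skeleton.

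The bases just upstream of the start sites are shown for the 7 of the 9 genes found in the RefSeq promoter table, because the windows show which letters the embryonic and adult genes share and which globins are near copies of each other. Each window is the 150 bases before the start, read 5′ to 3′ on the gene's own strand, on build GRCm38.p6. The windows are chr7:103853208-103853357 (minus strand) for Hbb-y, chr11:32276450-32276599 (plus) for Hba-x, chr11:32283522-32283671 (plus) for Hba-a1 and chr11:32296342-32296491 (plus) for Hba-a2. They are chr7:103827929-103828078 (minus) for Hbb-bs, chr7:103813924-103814073 (minus) for Hbb-bt and chrX:150547267-150547416 (plus) for Alas2. Capitals mark the letters CACCC (the core read by KLF1), CCAAT, GATA and TATAA on either strand.
Hbb-y: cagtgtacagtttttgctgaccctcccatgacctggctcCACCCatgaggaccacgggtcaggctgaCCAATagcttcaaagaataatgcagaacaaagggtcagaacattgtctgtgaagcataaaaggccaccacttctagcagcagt
Hba-x: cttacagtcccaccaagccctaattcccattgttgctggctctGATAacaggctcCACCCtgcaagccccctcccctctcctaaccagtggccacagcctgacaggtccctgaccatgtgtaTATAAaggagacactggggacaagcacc
Hba-a1: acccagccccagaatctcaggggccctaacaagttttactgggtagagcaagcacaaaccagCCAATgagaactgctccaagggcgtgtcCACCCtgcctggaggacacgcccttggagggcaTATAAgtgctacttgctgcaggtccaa
Hba-a2: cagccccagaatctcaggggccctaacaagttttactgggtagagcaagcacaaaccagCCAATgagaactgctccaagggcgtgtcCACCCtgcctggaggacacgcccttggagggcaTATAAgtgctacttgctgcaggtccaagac
Hbb-bs: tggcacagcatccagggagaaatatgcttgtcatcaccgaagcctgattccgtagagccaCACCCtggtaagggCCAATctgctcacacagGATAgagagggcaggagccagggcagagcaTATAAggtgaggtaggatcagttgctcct
Hbb-bt: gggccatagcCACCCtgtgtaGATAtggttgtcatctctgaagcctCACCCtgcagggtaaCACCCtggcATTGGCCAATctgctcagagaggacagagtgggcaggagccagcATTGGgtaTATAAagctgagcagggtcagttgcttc
Alas2: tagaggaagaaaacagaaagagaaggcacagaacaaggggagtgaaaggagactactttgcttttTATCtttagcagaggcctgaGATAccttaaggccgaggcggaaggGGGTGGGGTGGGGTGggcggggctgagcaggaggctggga

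All 7 windows held CACCC, which 37.4% of the 32851 promoter windows of the same length in that table also held. The letters stood 111 bases before the start in Hbb-y, 95 in Hba-x, 60 in Hba-a1 and 90 in Hbb-bs. Hbb-bt and Alas2 held 3 copies each, those of Alas2 on the opposite strand and next to each other. CCAAT, present in 24.5% of all windows, was found in Hbb-y and in the 4 adult globins, and its letters were not in the windows of Hba-x and Alas2. GATA (35.7% of all windows) was found in Hba-x, Hbb-bs, Hbb-bt and Alas2, and TATAA (14.2%) in Hba-x and the 4 adult globins, 27 to 30 bases before the start. No match overlapped another. The table's windows of Hba-a1 and Hba-a2 shared a run of 297 of 300 bases, those of Hbb-bs and Hbb-bt a longest run of 14 bases.

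Values are FPKM, fragments divided by the length of the transcript and by the size of the library, added up over the transcripts of a gene. They summed to between 454692 and 515952 per library, and without the globins to between 395753 and 413694. Read numbers are unknown. From the ratios of low values, the depth relative to Ctrl replicate 1 was roughly 1.15 to 1.61 in the other libraries. Mrps5 stood at 9.65, 11.4 and 10.4 FPKM in Ctrl replicates 1, 2 and 3 and at 5.28 and 7.41 in cKO replicates 1 and 2. In the library labelled cKO replicate 3 it was 10.4, inside the control range, so every direction given here for cKO hearts rests in part on a library that goes against its label in this gene. The log2 fold change of Mrps5, cKO minus Ctrl, was -0.44 (standard error 0.19, limma adjusted p = 0.339). Transcripts that keep or lack the floxed exons cannot be told apart in summed values. Across all genes tested, limma called 11 at an adjusted p under 0.05 with Benjamini-Hochberg adjustment, 0.0829% of them.

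Globins were among the most abundant transcripts of these hearts. Hbb-y, the main embryonic beta-like chain, ranked 1 of all genes in each of the 6 libraries. Hba-x, the embryonic alpha-like chain, ranked between 2 and 6, Hbb-bh1 between 3 and 10, Hba-a1 between 4 and 9 and Hba-a2 between 6 and 15. The adult beta genes ranked lower, Hbb-bs between 21 and 42 and Hbb-bt between 19 and 43. On the FPKM scale, which is per length, the levels in Ctrl hearts ran from 29188 ± 2540 (SD, n = 3) for Hbb-y through 8088 ± 720.3 for Hba-x, 7162 ± 2267 for Hbb-bh1, 5981 ± 559.6 for Hba-a1, 4379 ± 428 for Hba-a2, 1501 ± 845 for Hbb-bs and 1313 ± 329 for Hbb-bt to 201 ± 13.9 for Slc4a1 and 137 ± 5.92 for Alas2. In this order the control values of Hba-x and Hbb-bh1 overlapped, as did those of Hbb-bh1 and Hba-a1 and those of Hbb-bs and Hbb-bt. Neighbours elsewhere in the order did not overlap among controls.

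**Figure D1:**
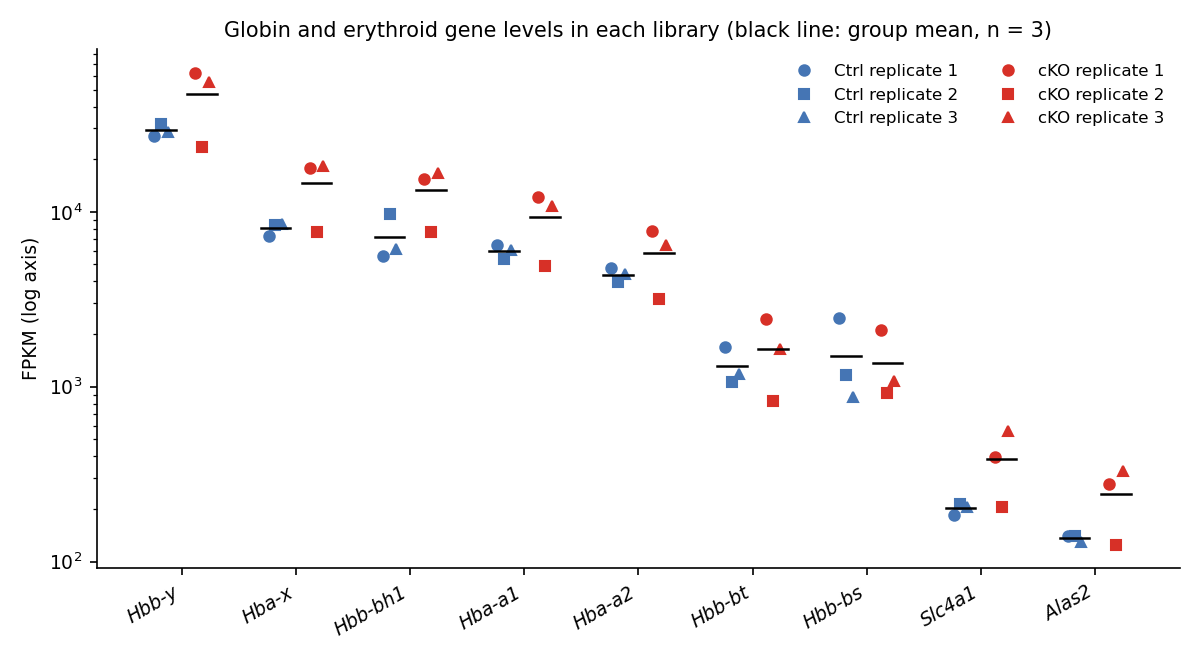
FPKM (log axis) of the 9 genes in each library, with Ctrl in blue, cKO in red, 1 symbol per replicate and the group mean (n = 3) as a black line. For each gene except Hbb-bs, cKO replicate 1 lies above all controls, whereas cKO replicate 2 lies within or below the controls for all 9 genes.

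In cKO hearts the 3 embryonic globins had higher mean levels than in Ctrl hearts, by 1.61 to 1.85 times, but the cKO libraries differed among themselves by more than that. Hbb-y was at 26970.2, 31958 and 28635 FPKM in Ctrl replicates 1, 2 and 3 and at 62350.4, 23618 and 55138 in cKO replicates 1, 2 and 3. cKO replicates 1 and 3 were thus far above the controls and cKO replicate 2 was the lowest library of all. The log2 fold change was 0.57 (standard error 0.42), which did not pass the test (limma adjusted p = 0.560). Hbb-bh1, the other embryonic beta-like chain, was at 5562, 9756 and 6168 FPKM in Ctrl and at 15485, 7696 and 16605 in cKO replicates 1, 2 and 3. Here cKO replicate 2 fell among the controls, below Ctrl replicate 2. Its log2 fold change was 0.85 (standard error 0.35, limma unadjusted p = 0.0412, adjusted p = 0.313). Hba-x was at 7259.5, 8435 and 8569 FPKM in Ctrl and at 17824, 7708 and 18209 in cKO replicates 1, 2 and 3, with the same pair of cKO libraries high. Its log2 fold change was 0.75 (standard error 0.35, limma adjusted p = 0.355).

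The adult alpha genes had the same pattern over libraries with smaller mean differences. Hba-a1 was at 6493, 5384 and 6066 FPKM in Ctrl and at 12194, 4919 and 10807 in cKO replicates 1, 2 and 3. The log2 fold change was 0.54 (standard error 0.34, limma adjusted p = 0.493). Hba-a2, which encodes the same kind of chain, was at 4802, 3947 and 4387 FPKM in Ctrl and at 7800.5, 3188 and 6481 in cKO hearts (log2 fold change 0.32, standard error 0.32, limma adjusted p = 0.684). For both genes cKO replicates 1 and 3 lay above all controls and cKO replicate 2 below them. The transcripts of Hba-a1 and Hba-a2 in the GENCODE M21 annotation are 99.8% identical over 538 aligned bases and share a run of 415 bases, so the split of reads between them is uncertain. The ratio of Hba-a1 to Hba-a2, picked out after the values were seen and not tested, was 1.35, 1.36 and 1.38 in Ctrl and 1.56, 1.54 and 1.67 in cKO replicates 1, 2 and 3. The ranges of this ratio did not overlap between the groups, and how often ratios of other gene pairs do so is not given here. That of Hbb-bs to Hbb-bt, the other near copies, overlapped (0.734 to 1.46 in Ctrl and 0.659 to 1.11 in cKO hearts).

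The adult beta genes followed the pattern least. Hbb-bs was at 2462, 1167 and 873 FPKM in Ctrl and at 2108, 919 and 1078 in cKO replicates 1, 2 and 3. Ctrl replicate 1 was the highest library, more than the other two controls together. The log2 fold change was -0.09 (standard error 0.42, limma adjusted p = 0.944), and it was 0.34 without Ctrl replicate 1. Hbb-bt was at 1686, 1063 and 1189 FPKM in Ctrl and at 2437, 826 and 1635 in cKO hearts, where cKO replicate 3 lay inside the control range (log2 fold change 0.21, standard error 0.36, limma adjusted p = 0.827). It was -0.15 without cKO replicate 1. The transcripts of Hbb-bs and Hbb-bt are 93.0% identical over 618 aligned bases with a shared run of 430 bases, and their values may likewise be mixed. For comparison, the embryonic Hbb-y and Hbb-bh1 are 73.1% identical, with a longest shared run of 26 bases. Together the adult beta genes were at 4148, 2229.9 and 2063 FPKM in Ctrl and 4545, 1745 and 2713 in cKO replicates 1, 2 and 3.

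Both erythroid genes outside the globin clusters showed the split of the cKO libraries seen for the embryonic globins. Alas2, the red cell form of the enzyme that starts heme synthesis, was at 141, 139.6 and 129.9 FPKM in Ctrl and at 279, 125 and 328 in cKO replicates 1, 2 and 3. The log2 fold change was 0.72 (standard error 0.31, limma unadjusted p = 0.0474, adjusted p = 0.327). Slc4a1 was at 186, 213 and 205 FPKM in Ctrl and at 395, 205 and 555 in cKO hearts. Here cKO replicate 2 lay inside the control range and cKO replicate 3 was the highest library. Its log2 fold change was 0.82 (standard error 0.31, limma unadjusted p = 0.0271, adjusted p = 0.276). Relative to the globins, Slc4a1 was at 3.36, 3.45 and 3.67 FPKM per 1000 globin FPKM in Ctrl and at 3.28, 4.2 and 5.05 in cKO replicates 1, 2 and 3, so the groups overlapped.

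Of the 9 genes, 8 had a higher mean log2 value in cKO hearts, where 45% of all genes tested did, and 3 (Hbb-bh1, Alas2 and Slc4a1) were higher with an unadjusted p under 0.05, where 5.58% of all genes tested were. The count of 3 was 8 without cKO replicate 2 (6.57% of all genes then tested), 2 without Ctrl replicate 2 (4.78%) and 0 without any of the other 4 libraries (3.36% to 6.39%). None passed an adjusted p of 0.05 in the limma fit, where 0.0528% of all genes tested passed as higher, and none had groups that did not overlap, against 7.74% of all genes tested that were higher in every cKO than in every Ctrl library. In cKO replicate 1, 8 of the 9 genes exceeded the highest control, where 24.2% of all genes tested did, in cKO replicate 3 it was 7 (24.4%) and in cKO replicate 2 it was 0 (35%). Without cKO replicate 2, Alas2 (log2 fold change 1.14, limma adjusted p = 0.0157) and Slc4a1 (1.22, limma adjusted p = 0.0265) passed, against 0.808% of the 13115 genes then tested that were called higher. The other 7 did not, with limma adjusted p values from 0.0576 for Hba-x to 0.897 for Hbb-bs. Without cKO replicate 3, in which Mrps5 was at the control level, the log2 fold changes of the 9 genes ran from 0.03 for Hbb-bs to 0.65 for Hbb-bh1, and without cKO replicate 1 from -0.45 for Hbb-bs to 0.75 for Slc4a1. In neither case did any of the 9 pass or reach an unadjusted p under 0.05 in limma, where 0.965% and 0.0228% of all genes then tested were called higher.

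**Figure D2:**
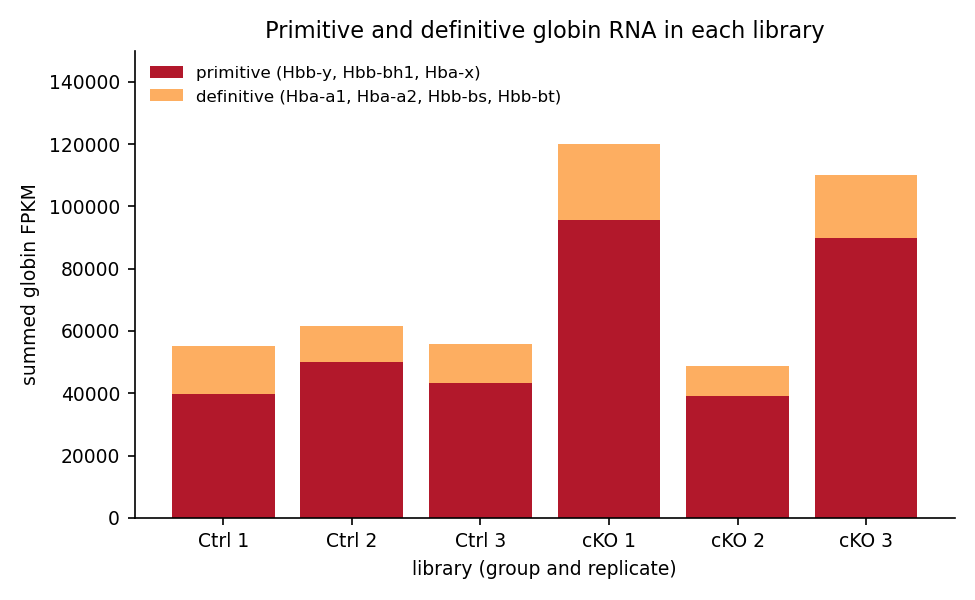
Summed FPKM of the embryonic (dark red) and adult (orange) globins in each library, 1 bar per library on a linear axis from 0. cKO replicates 1 and 3 reach 120199 and 109953 FPKM, and the other 4 libraries lie between 48875 and 61709.5 FPKM.

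Globins together took 12.1%, 13.2% and 11.9% of the summed FPKM in Ctrl replicates 1, 2 and 3, and 23.3%, 10.7% and 21.7% in cKO replicates 1, 2 and 3. The cKO group thus held both the highest and the lowest values. The means were 12.4% ± 0.684 (SD, n = 3) and 18.6% ± 6.86 (SD, n = 3), a difference of 6.17 percentage points that was within the spread of the cKO libraries (exact two-sided permutation test, p = 0.4, and 0.5 after Benjamini-Hochberg adjustment over 5 shares). With 3 libraries against 3 the test cannot give less than 0.1. The difference was 10.1 points without cKO replicate 2, 3.81 points without cKO replicate 1, and 2.51 points when FPKM was weighted by transcript length, since globin transcripts are short. In bulk tissue, more red cells in a heart and more globin RNA per red cell cannot be told apart. Transcripts of the mitochondrial genome (mt- genes) were lower in each cKO library than in the controls, and lowest in the cKO libraries with high globins, with 67134 to 71889.8 FPKM in the Ctrl libraries and 54986, 63913 and 45525 in cKO replicates 1, 2 and 3. Their part in the result was not tested, and with these genes left out of the total the difference in the globin share was 6.20 points.

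The share of the leading embryonic chain varied less between libraries than the globin amount. Hbb-y made up 48.3% to 51.9% of globin FPKM over the 6 libraries, Hba-x 13.1% to 16.6% and Hbb-bh1 10.1% to 15.8%. Among the adult chains Hba-a1 contributed 8.72% to 11.8%, Hba-a2 5.89% to 8.69%, Hbb-bt 1.49% to 3.05% and Hbb-bs 0.980% to 4.46%. The highest share of both adult beta chains was that of Ctrl replicate 1.

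**Figure D3:**
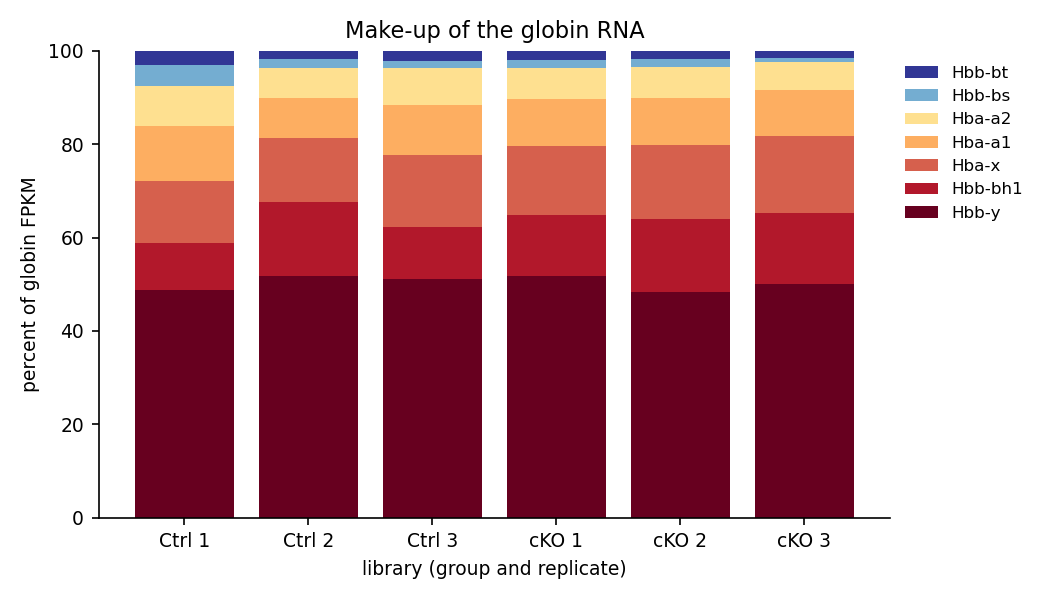
Percent of summed globin FPKM contributed by each of the 7 globins in each library, with embryonic chains in red at the bottom and adult chains above. The 3 embryonic chains fill 72.0% to 81.8% of each bar, with the lowest value in Ctrl replicate 1.

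The embryonic share of globin FPKM was 72.0%, 81.3% and 77.6% in Ctrl replicates 1, 2 and 3 and 79.6%, 79.8% and 81.8% in cKO replicates 1, 2 and 3. The cKO values lay close together and, except for cKO replicate 3, below that of Ctrl replicate 2. The means of 77.0% ± 4.64 (SD, n = 3) and 80.4% ± 1.22 (SD, n = 3) differed by 3.44 points, less than the spread of the controls (exact two-sided permutation test, p = 0.3, adjusted 0.5), and by 0.977 points without Ctrl replicate 1. In cKO replicate 2, where the globin amount was lowest, the embryonic share lay between those of the other two cKO libraries. Within the beta-like chains the embryonic share was 88.7%, 94.9% and 94.4% in Ctrl and 94.5%, 94.7% and 96.4% in cKO replicates 1, 2 and 3 (difference 2.51 points, 0.522 without Ctrl replicate 1, exact permutation p = 0.4, adjusted 0.5). Within the alpha-like chains, Hba-x made up 39.1%, 47.5% and 45.0% in Ctrl and 47.1%, 48.7% and 51.3% in cKO hearts. This was the larger difference between the chain types, at 5.17 points, and it too overlapped between groups (exact permutation p = 0.2, adjusted 0.5, and 2.79 points without Ctrl replicate 1). The balance of the chains was measured by the alpha-like chains, which stood at 33.6%, 28.8% and 34.0% of globin FPKM in Ctrl and 31.5%, 32.4% and 32.3% in cKO hearts (difference -0.104 points, exact permutation p = 1.0). Of the embryonic beta-like FPKM, Hbb-bh1 took 17.1%, 23.4% and 17.7% in Ctrl and 19.9%, 24.6% and 23.1% in cKO replicates 1, 2 and 3, again with overlap. Markers of hepatocytes, the neighbours of definitive red cells in the fetal liver, summed to 162, 339 and 26.0 FPKM in Ctrl and 101, 202 and 155 in cKO replicates 1, 2 and 3, and their part in these shares was not tested.

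Other red cell genes were taken from 5 lists that together held 100 genes, of which 93 were in the table and 92 were tested. They cover heme synthesis, iron handling, the red cell membrane, transcription factors and receptors, and enzymes with maturation genes, and they include Alas2 and Slc4a1. Of the 92 genes, 79 had a higher and 13 a lower mean log2 value in cKO hearts. The median log2 fold change was 0.45, where that of all genes tested was -0.02. With 1 library left out the list median ran from 0.27 (without cKO replicate 3) to 0.66 (without cKO replicate 2). An unadjusted p under 0.05 was reached by 33 in the higher and 2 in the lower direction, against 5.58% and 9.43% of all genes tested. No list gene passed an adjusted p of 0.05 in the limma fit, and the lowest was 0.141. Groups did not overlap for 9 genes higher in cKO hearts, near the 7.74% of all genes. The split of the cKO libraries ran through the lists, since 71 of the 92 genes exceeded the highest control in cKO replicate 1 and 79 in cKO replicate 3, but 14 in cKO replicate 2, beside 24.2%, 24.4% and 35% of all genes tested. Without cKO replicate 2, 30 of 91 were called higher by limma (adjusted p under 0.05), against 0.808% of all genes then tested. Without cKO replicate 3 the count was 1 of 92 (Hmox1, named after its value was seen, which degrades heme), near the 0.965% of all genes then tested. Without cKO replicate 1 it was 0 of 91, beside 0.0228% of all genes then tested, with 9 list genes higher at an unadjusted p under 0.05. By that p the count of 33 higher genes was 68 without cKO replicate 2 (6.57% of all genes then tested), 7 without cKO replicate 3 (6.39%), 9 without cKO replicate 1 (4.07%), 10 without Ctrl replicate 1 (3.36%), 26 without Ctrl replicate 2 (4.78%) and 9 without Ctrl replicate 3 (3.82%).

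**Figure D4:**
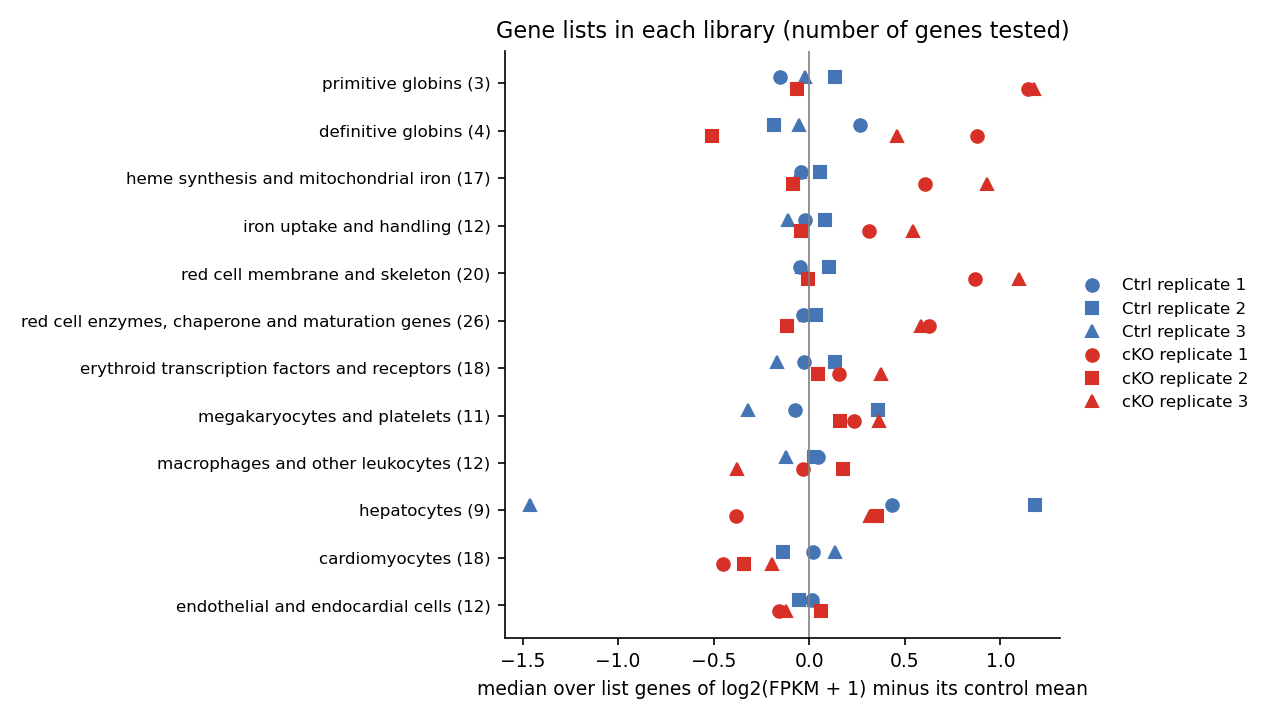
Median over the genes of each list (number tested in brackets) of log2(FPKM + 1) minus the gene's Ctrl mean, 1 symbol per library, with Ctrl in blue and cKO in red. In the globin, heme, iron, membrane and enzyme lists cKO replicates 1 and 3 lie to the right of all Ctrl libraries and cKO replicate 2 at or to the left of the Ctrl mean.

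Of the 17 genes of heme synthesis and mitochondrial iron supply, 16 were higher in cKO hearts and 9 had an unadjusted p under 0.05, where 5.58% of all genes tested were higher at that p (median log2 fold change 0.47). The count of 9 was 14 without cKO replicate 2, 5 without Ctrl replicate 2, and 2 without any of the other 4 libraries, beside 3.36% to 6.57% of all genes in these fits. The median log2 fold change was 0.78 without cKO replicate 2 and 0.31 without cKO replicate 3. The list median over its genes stood 0.61, -0.08 and 0.93 above the Ctrl mean on the log2 scale in cKO replicates 1, 2 and 3. Slc25a37 (mitoferrin 1), which brings iron into mitochondria, was at 149, 157 and 157 FPKM in Ctrl and at 276, 145 and 333 in cKO hearts (log2 fold change 0.62, limma adjusted p = 0.322). It passed without cKO replicate 2 (limma adjusted p = 0.0241). Tmem14c, a carrier for heme intermediates, had a log2 fold change of 0.47 (limma adjusted p = 0.370). Groups did not overlap for 2 genes of the list, Cpox and Alad, named after their values were seen, a share near the 7.74% of all genes tested. Cpox, which acts late in the pathway, was at 47.7, 67.7 and 51.1 FPKM in Ctrl and at 106, 76.7 and 138 in cKO hearts, so that cKO replicate 2 too was above the controls (log2 fold change 0.91, standard error 0.21, limma adjusted p = 0.148).

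Among the 12 iron uptake and handling genes tested, 10 were higher in cKO hearts and 4 had an unadjusted p under 0.05, all in that direction, in which 5.58% of all genes tested had such a p. That count was 9 without cKO replicate 2, 3 without Ctrl replicate 3, 1 without Ctrl replicate 2, and 2 without any of the other 3 libraries, where 3.36% to 6.57% of all genes then tested were higher at that p. The median log2 fold change was 0.38, and with 1 library left out it ran from 0.14 (without cKO replicate 3) to 0.55 (without cKO replicate 2). Groups did not overlap for 2 genes, Steap3 and Hmox1, both higher and named after their values were seen, beside 7.74% of all genes tested. Hmox1 was at 6.91, 8.43 and 6.69 FPKM in Ctrl and at 15.2, 16.1 and 9.77 in cKO replicates 1, 2 and 3, with cKO replicate 2 the highest (log2 fold change 0.79, limma adjusted p = 0.141). The ferritin light chain gene Ftl1, part of the iron store of most cells, was at 823, 819.6 and 929.9 FPKM in Ctrl and at 1282, 904 and 1147 in cKO hearts (log2 fold change 0.36, limma adjusted p = 0.317). For the heavy chain gene Fth1 it was 0.53 (limma adjusted p = 0.357), for the transferrin receptor gene Tfrc 0.43 (0.470 by the same test) and for the biliverdin reductase gene Blvrb 0.61 (0.316).

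The membrane and skeleton list had the highest median of the 5, at 0.60. This median was 0.98 without cKO replicate 2 and 0.32 without cKO replicate 3, where that of the heme list was 0.31. Of the 20 membrane and skeleton genes tested, 17 were higher and 10 had an unadjusted p under 0.05, all higher (5.58% of all genes tested). The list median over genes stood at 0.87, -0.01 and 1.10 above the Ctrl mean in cKO replicates 1, 2 and 3. Sptb, the beta spectrin of the red cell skeleton, was at 44.3, 48.6 and 44.7 FPKM in Ctrl and at 90.9, 47.6 and 113 in cKO hearts (log2 fold change 0.77, limma adjusted p = 0.251). Tmod1, a tropomodulin that caps actin filaments, was 1 of 3 genes with a lower mean, with 67.6, 64.6 and 77.2 FPKM in Ctrl and 58.5, 56.9 and 75.8 in cKO hearts (-0.14, limma adjusted p = 0.653). The others were the water channel gene Aqp1 (-0.27, limma adjusted p = 0.467) and Epb41 (-0.07, limma adjusted p = 0.846), both named after their values were seen. The count of 10 was 17 without cKO replicate 2, 9 without Ctrl replicate 2, 2 without cKO replicate 1 or Ctrl replicate 3, and 1 without cKO replicate 3 or Ctrl replicate 1, beside 3.36% to 6.57% of all genes in these fits. By adjusted p, 12 genes of this list passed in limma without cKO replicate 2, against 0.808% of all genes then tested that were called higher. The count was 0 without cKO replicate 1 (0.0228%) and 0 without cKO replicate 3 (0.965%).

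Transcription factors and receptors were the most mixed list, with 14 of 18 genes higher, 4 lower and a median log2 fold change of 0.30. That median ran from 0.12 (without cKO replicate 3) to 0.38 (without Ctrl replicate 2) with 1 library left out. At an unadjusted p under 0.05 there were 4 higher and 2 lower genes, beside 5.58% and 9.43% of all genes tested, and the share of lower genes is near that background. The higher ones were 9 without cKO replicate 2, 7 without Ctrl replicate 2, 2 without cKO replicate 1 or Ctrl replicate 1, and 1 without cKO replicate 3 or Ctrl replicate 3 (3.36% to 6.57% of all genes in these fits). Tal1, a factor of early blood and red cell formation, was at 32.6, 39.5 and 36.4 FPKM in Ctrl and at 66.0, 33.1 and 72.2 in cKO hearts (log2 fold change 0.57, limma adjusted p = 0.344). Zfpm1, the GATA1 partner also made in the heart, was at 34.6, 38.8 and 32.9 FPKM in Ctrl and at 50.7, 40.2 and 61.8 in cKO hearts, without overlap (0.49, limma adjusted p = 0.205). Klf3 did not overlap either (0.25, limma adjusted p = 0.275). In the lower direction Sox6 (-0.34, limma adjusted p = 0.251) and Cbfa2t3 (-0.26, limma adjusted p = 0.285), named after their values were seen, did not overlap. These 2 higher and 2 lower of 18 genes stand beside 7.74% and 13% of all genes tested. Ldb1, a cofactor found in many tissues, had values of 56.0 to 63.4 FPKM in Ctrl and 56.9 to 63.5 in cKO hearts (0.03, limma adjusted p = 0.891).

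Of the 26 enzyme, chaperone and maturation genes tested, 23 were higher and 7 had an unadjusted p under 0.05, all higher, as were 5.58% of all genes tested at that p (median log2 fold change 0.38). That count was 20 without cKO replicate 2, 5 without Ctrl replicate 2, 4 without Ctrl replicate 1, and 2 without any of the other 3 libraries, beside 3.36% to 6.57% of all genes then tested. The list median was 0.69 without cKO replicate 2 and 0.26 without cKO replicate 3. Groups did not overlap for 3 genes, Pklr, Cpox and Dnase2a, all higher and named after their values were seen, beside 7.74% of all genes tested. Cpox is also in the heme list. Gpx1, which removes hydrogen peroxide, was at 353, 350.4 and 396 FPKM in Ctrl and at 678, 319 and 616 in cKO hearts (0.48, limma adjusted p = 0.419). Prdx2, a peroxiredoxin abundant in red cells, had a log2 fold change of 0.37 (limma adjusted p = 0.373), Car2, a carbonic anhydrase, of 0.52 (0.422 by the same test) and Nudt4 of 0.54 (0.306). Of the other genes of the globin clusters, 3 of 10 symbols were in the table and tested. Hbq1b, a theta globin gene beside the alpha genes, was at 10.8, 13.6 and 11.5 FPKM in Ctrl and at 28.8, 10.3 and 25.8 in cKO hearts (log2 fold change 0.69, limma adjusted p = 0.360), which is the order of the libraries seen for Hbb-y and for the summed globins, at a far lower level.

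**Figure D5:**
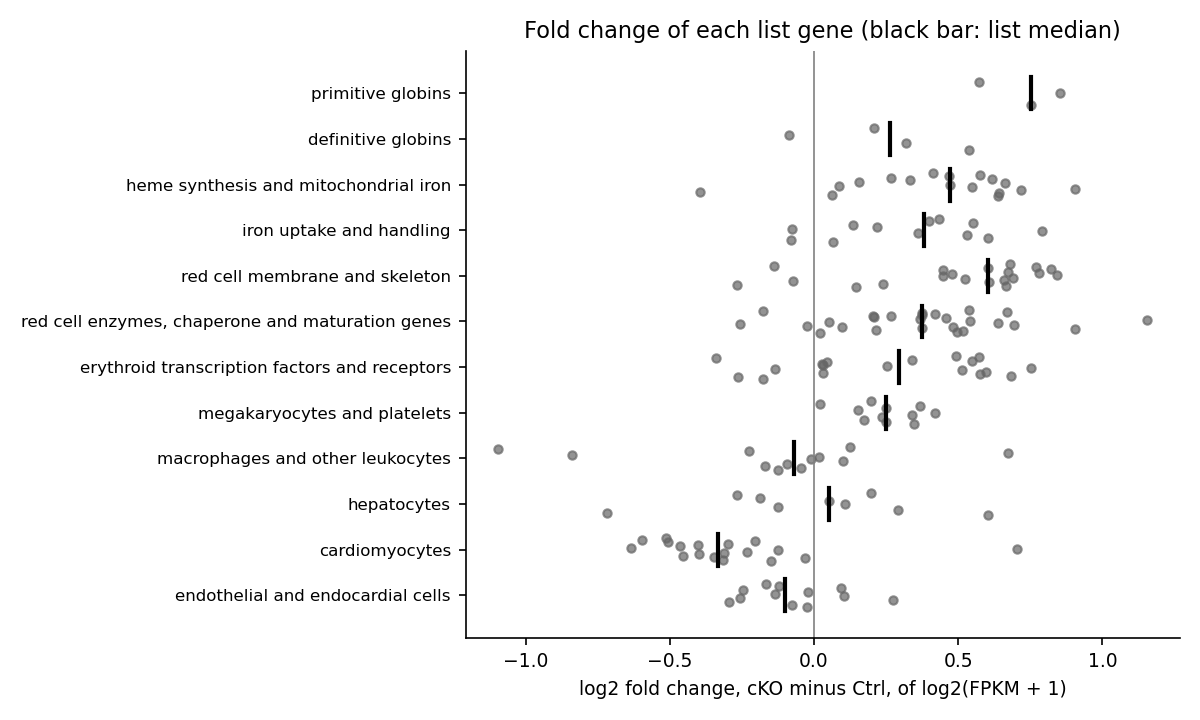
Log2 fold change (cKO minus Ctrl, of log2(FPKM + 1)) of each tested gene by list, 1 point per gene, with the list median as a black bar. The medians of the 5 erythroid lists lie between 0.30 and 0.60, that of cardiomyocytes at -0.33.

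The genes whose levels tracked the globins most closely over the 6 libraries were sought among 9032 other genes with a mean of at least 5 FPKM, by Pearson's r of log2 values with the log2 of summed globin FPKM. The 10 highest were Hbq1b (r = 0.997), Tnfrsf14 (0.992), Car2 (0.990), Spag5 (0.988), March2 (0.985), Bcat2 (0.985), Plek2 (0.984), Prdx2 (0.984), 5730508B09Rik (0.983) and Rb1 (0.983). Some of these spanned little, since Bcat2 ran from 14.5 to 16.9 FPKM and Rb1 from 8.35 to 10.8, whereas Tnfrsf14 ran from 12.7 to 30.4 FPKM. Of the 79 erythroid list genes compared, 40 (50.6%) had an r of at least 0.9, against 2.13% of all genes compared, and their median r was 0.90 where that of all genes was -0.25. Another 7 list genes had an r below 0. These correlations rest on 6 libraries of which 2 are far from the rest, and all points share the library's scaling, so they describe the libraries and were not tested.

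Markers of other cell types in the heart were measured beside the globins. Of 18 cardiomyocyte genes 17 were lower in cKO hearts, 13 of them without overlap where 13% of all genes tested were lower without overlap, and the median log2 fold change was -0.33. Their summed FPKM was 13726 to 16487 in Ctrl and 11926, 13044 and 13387 in cKO replicates 1, 2 and 3, so it was below the controls in cKO replicate 2 as well, where the globin sum was below all controls. The defining contractile gene Actc1 was present at 2254 to 3340.3 FPKM in every library, as the label heart requires, and Myl2, the ventricular light chain, was at 2419, 2166 and 2795 FPKM in Ctrl and 1751, 1674 and 1944 in cKO hearts (log2 fold change -0.45, limma adjusted p = 0.231). Myl7 (-0.23, limma adjusted p = 0.474) and Myl4 (-0.31, limma adjusted p = 0.328) were also lower in each cKO library than in each control. The cardiomyocyte gene with a higher mean was Nppa, named after its values were seen, a natriuretic peptide gene (log2 fold change 0.70, limma adjusted p = 0.240). Of 12 endothelial and endocardial genes 9 were lower, 4 of them without overlap, and 1 (Emcn, named after its values were seen) was higher without overlap, beside 13% and 7.74% of all genes tested. The median log2 fold change was -0.10, with Cdh5 at -0.02 (limma adjusted p = 0.938). The summed FPKM of these genes was 287, 264 and 277 in Ctrl and 254, 282 and 246 in cKO replicates 1, 2 and 3, so that it was below all controls in the cKO libraries with high globins and inside the control range in cKO replicate 2. For hepatocytes 5 of 9 genes were higher, with a median of 0.05, which was -0.60 without Ctrl replicate 3 and 0.57 without Ctrl replicate 2. Afp, the leading hepatocyte marker, was at 71.1, 188 and 16.2 FPKM in Ctrl and 60.9, 130.3 and 100.2 in cKO hearts (log2 fold change 0.60, limma adjusted p = 0.748). Alb was at 38.7, 52.9 and 0.670 FPKM in Ctrl and at 13.4, 22.1 and 1.41 in cKO replicates 1, 2 and 3, with replicate 3 the lowest in both groups. The part of these cell types in the globin values was not tested.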

How the data were processed

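RNA of hearts at embryonic day 12 was measured in 3 Ctrl and 3 cKO libraries, grouped by their labels. The authors deposited 1 table of FPKM values, 1 per transcript and library, made from strand-specific libraries after removal of ribosomal RNA. The submitters' processing notes name HISAT2, StringTie 1.3.1, Cuffdiff 2.1.1, Bowtie2 2.2.8 and the build mm9 without a role or order, and the annotation release is not given in the sources used here. FPKM is already scaled to the library, so that a rise of very abundant RNAs such as globins takes FPKM from other genes, and the numbers of reads, and with them the counting error, are unknown.

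The 60776 transcript rows were summed to 26199 genes, after 26 symbols that had been turned into dates were restored. The 13262 genes that reached 1 FPKM in 3 or more libraries were compared on log2(FPKM + 1) with limma 3.58.1 in R 4.3.3, cKO minus Ctrl, with Benjamini-Hochberg adjustment over all genes tested. Fold changes on this scale understate those of genes at low FPKM. The code was tested on simulated data. Shares were compared over libraries with an exact two-sided permutation test (20 splits) and adjusted over 5 shares. The labels call the samples biological replicates, and each library was a pool of hearts.

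Named genes were the 9 members, up to 4 genes with the highest mean FPKM of each list, the 10 genes most like the globins, any list gene past the adjusted threshold, and Mrps5, and some genes that this rule names are not reported here. Lists covered other globin-cluster genes, the 5 erythroid groups, megakaryocytes and platelets, macrophages and other leukocytes, hepatocytes, cardiomyocytes, and endothelial and endocardial cells. Members and lists were chosen with earlier results of these data known. List symbols not matched in the table, among them Ahsp and Flvcr1, were not analysed here. Transcript identity was computed on GENCODE M21 transcripts, and promoter windows were read from RefSeq on GRCm38.p6, a build other than that of the table. Lengths were matched for 55783 rows, at least 96.6% of the FPKM of each library. Alternatives were a pseudocount of 0.1, other filters, rescaling without globins, median-ratio scaling, the most abundant transcript per gene, array weights, a replicate block, length-weighted shares and leaving out each library.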

Additional observations from a re-analysis of the deposited data

How the results depend on the processing

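Read depth is unknown, so no limit of detection can be given, and 3 libraries a group limit the shares to an exact p of 0.1 or more. Equal replicate numbers did not mark shared embryos, and the deviations of equally numbered libraries from their group means correlated at 0.215, 0.108 and 0.0892, not all above 0.1. Each library correlated best with the one of its own number, a hint from the data and not the design. Under a replicate block in the limma fit 4 genes were called, against 11 without it. Of 92 erythroid list genes, 31 had an unadjusted p under 0.05 in either direction, against 35 without the block. The block changed no call of a named gene, and the 9 members had limma adjusted p values from 0.230 (Slc4a1) to 0.815 (Hbb-bs). The paired sign-flip test, whose smallest p is 0.25, gave 0.25 for the Hba-x share of alpha-like chains.

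The count of genes called by limma was also 5 without the filter on low values, 4 with the most abundant transcript of each gene and 36 with array weights, and it ran from 3 to 261 when 1 library was left out, at 123 without cKO replicate 2 and 261 without cKO replicate 3. Erythroid list genes with an unadjusted p under 0.05, higher and lower pooled, numbered 16 of 93 without the filter and 17 of 92 with the most abundant transcript. With 1 library left out they numbered 10 of 91 (without cKO replicate 1) or 10 of 92 (without cKO replicate 3) to 72 of 91 (without cKO replicate 2). The share of all genes with such a p in either direction is not given here for these fits or the block. The causes were not tested.

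For the 9 members, 48 of 54 values with 1 library left out and 71 of 72 under other alternatives kept their direction and side of the threshold. For the 49 other named genes these numbers were 263 of 294 and 382 of 387. Without cKO replicate 2, genes that passed an adjusted p of 0.05 in limma included Alas2, Slc4a1, Hbq1b, Slc25a37, Fth1, Blvrb, Sptb, Tal1, Gpx1, Car2, Nudt4, Tnfrsf14 and Plek2, and without cKO replicate 3 Lyz2 did. Without cKO replicate 3, list genes outside the rule for named genes also passed, among them Nppa (0.99, limma adjusted p = 0.0160), Tnni1 (-0.72, limma adjusted p = 0.0164), Pln (-0.80, limma adjusted p = 0.0246) and Hmox1. No named gene passed with all 6 libraries in the limma fit, so none could lose a call.

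Some differences changed sign, among them those of Alb and Afp, whose values with all 6 libraries were -0.72 and 0.60. Hbb-bs had a log2 fold change of 0.12 with array weights and of -0.45 to 0.34 with 1 library left out, and Hbb-bt ran from -0.15 to 0.63. The alpha-like share of globin differed by 0.297 points when weighted by length and by -1.78 to 0.845 points with 1 library left out. With array weights the log2 fold change was -0.015 for Ppbp, -0.021 for Fcer1g and 0.0083 for C1qb, and that of Cdh5 was 0.00069 when rescaled without globins and 0.00021 under median-ratio scaling. With 1 library left out it ran from -0.011 to 0.081 for Ldb1, -0.27 to 0.32 for Ppbp, -0.029 to 0.37 for Itgb3, -0.070 to 0.10 for Fcer1g, -0.18 to 0.14 for C1qb, -0.10 to 0.057 for Cdh5, -0.32 to 1.41 for Afp, -2.32 to 0.25 for Alb, -0.44 to 0.88 for Apoa1 and -1.12 to 0.57 for Apoa2. The cause was not tested.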

Other observations

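Megakaryocytes, the platelet-forming cells, share a precursor with red cells. All 11 megakaryocyte and platelet genes tested had a higher mean log2 value in cKO hearts (list median of the log2 fold changes 0.25), where 45% of all genes tested did. Of them, 1 (Itga2b, the platelet integrin, log2 fold change 0.42, limma adjusted p = 0.295) had an unadjusted p under 0.05, where 5.58% of all genes tested were higher at that p. The count of 1 was 9 without Ctrl replicate 2 (4.78% of all genes then tested), 2 without cKO replicate 2 (6.57%) and 1 without cKO replicate 3 (6.39%). It was 0 without Ctrl replicate 1, Ctrl replicate 3 or cKO replicate 1 (3.36% to 4.07%). The list median ran from 0.11 without Ctrl replicate 3 to 0.47 without Ctrl replicate 2, and none passed an adjusted p of 0.05 in limma. The list did not follow the split of the cKO libraries seen for the globins. Its summed FPKM was 99.3, 159 and 76.2 in Ctrl replicates 1, 2 and 3 and 128, 125 and 136 in cKO replicates 1, 2 and 3. Pf4, a platelet chemokine gene, was at 35.2, 62.7 and 27.5 FPKM in Ctrl and 50.04, 51.0 and 52.0 in cKO hearts (log2 fold change 0.37, limma adjusted p = 0.533). The values for Ppbp and Itgb3 were 0.02 and 0.15 (limma adjusted p = 0.982 and 0.749).

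Leukocyte genes were low in every library, with a summed FPKM of 33.8 to 47.5. Of 12 tested, 4 were higher and 8 lower in cKO hearts, and 2 of the lower ones had an unadjusted p under 0.05, where 9.43% of all genes tested were lower at that p. Lyz2, a lysozyme gene of macrophages and neutrophils, was at 12.0, 10.1 and 9.10 FPKM in Ctrl and at 3.94, 4.89 and 7.76 in cKO replicates 1, 2 and 3, without overlap (log2 fold change -0.84, limma adjusted p = 0.154, and -1.07 with 0.00753 without cKO replicate 3). Fcer1g (0.02, limma adjusted p = 0.967), C1qb (-0.05, limma adjusted p = 0.925) and Tyrobp (0.12, limma adjusted p = 0.664) differed little beside their spread. Among the remaining hepatocyte and endothelial genes, the log2 fold change was -0.72 for Alb, 0.29 for Apoa1, -0.13 for Apoa2, -0.29 for Egfl7, -0.25 for Npr3 and -0.12 for Tek, with limma adjusted p values from 0.294 to 0.956. In the globin clusters, Hbb-bh2 was at 0.961, 2.43 and 1.59 FPKM in Ctrl and 3.60, 1.2 and 3.30 in cKO hearts, and Hbq1a at 0.838, 1.06 and 1.97 and at 3.49, 0.831 and 2.28 (log2 fold changes 0.44 and 0.42, limma adjusted p = 0.541 and 0.579).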
